A study of Caenorhabditis elegans with 7 samples.

Results

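The *dhs* genes of *C. elegans* encode short-chain dehydrogenases, and their transcripts were measured in worms given tomatidine or its vehicle. The family was taken as every gene whose symbol is *dhs* with a number, which gave 30 genes in the RefSeq annotation. Of these, 29 had a matched probe on the array and all 29 were tested, out of 14224 genes tested in all. *dhs-17* had no matched probe and was not analysed here. The 30 genes are spread over chromosome I with 4, chromosomes II and V with 4 and 12, chromosomes III and IV with 2 each, and the X chromosome with 6.

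Both groups were wild-type N2 worms, with no transgene or mutation, kept from the last larval stage (L4) on plates and collected as whole worms on adult day 7. One group received 1% DMSO as the vehicle on 4 arrays. The other received 25 μM tomatidine, a steroidal alkaloid from unripe tomatoes, on 3 arrays. The labels call the vehicle worms untreated. Each array carried Cy3-labeled cRNA from a separate preparation, except for a hybridization of preparations combined in equal amounts, whose array is not identified. A combined hybridization repeats RNA of single preparations, so the arrays may not all be independent. The p values measure only the spread between these 7 arrays. In limma, the test used below, each gene's variance is also drawn toward that of genes of like signal. Whole worms were measured, so fewer cells of a type and less RNA per cell cannot be told apart.

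Short-chain dehydrogenases bind the cofactors NAD(H) or NADP(H) and convert alcohols to ketones or aldehydes, or the reverse. They form a very large enzyme family in animals, and their substrates include sterols, fatty acyl chains, retinoids and sugars. In the worm the best-known members serve fat storage, peroxisomal fat breakdown, steroid hormone synthesis and sugar metabolism. For most of the numbered genes the substrate is not known, and no role is given for them here.

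The arrays differed in quality. The share of probes well above background lay between 53.0% on vehicle replicate 2 and 69.7% on vehicle replicate 1. Negative controls had a net signal of 75.1 to 114.4 on 5 arrays, and were brighter on vehicle replicate 2 (424.4) and tomatidine replicate 1 (237.2). The first slide held vehicle replicates 1, 2 and 3 with tomatidine replicate 1, and the second held vehicle replicate 4 with tomatidine replicates 2 and 3. The labels carry tags that join tomatidine replicates 1, 2 and 3 with vehicle replicates 2, 3 and 4. In the check of the labelled whole worms, 7 of 7 intestine markers, 5 of 5 muscle markers, 6 of 6 germline markers, 4 of 5 hypodermis markers, 4 of 5 neuron markers and 3 of 5 sperm markers passed the filter on dim probes, and 0 of them passed the test between the groups. All levels below are log2 signals of 1 probe, scaled so that 0 is the mean of all probes on the array, and they are compared between arrays and not between genes.

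None of the 29 *dhs* genes passed limma's test at an adjusted p under 0.05, and the adjusted p of each was 0.9998. The count was 0 higher, against 0.0773% of all genes tested, and 0 lower, against 0.0%. Of the 29, *dhs-14* alone had an unadjusted p under 0.05 and was the only one whose 95% confidence interval left out 0, at a background of 0.752% of genes for higher and 0.471% for lower signals. The next lowest unadjusted p, of *dhs-26*, was 0.151, from the same limma fit with an adjusted p of 0.9998. The log2 fold change of tomatidine over vehicle was positive for 18 members and negative for 11. Its median was 0.05, against -0.03 for all genes, and it ran from -0.63 for *dhs-26* to 1.04 for *dhs-14*. For 27 of the 29 it was smaller than 0.5 in either direction.

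The precision of these estimates differs between members. The standard error of the log2 fold change ran from 0.19 to 0.47 with a median of 0.26. For 21 members the 95% confidence interval lay within 1 log2 unit on either side of 0, and for 8 it did not. The 8 were *dhs-2*, *dhs-7*, *dhs-8*, *dhs-14*, *dhs-16*, *dhs-20*, *dhs-23* and *dhs-26*. In 25 members the probe was well above background on all 7 arrays. The exceptions were *dhs-7* and *dhs-31*, on 3 of 4 vehicle and 3 of 3 tomatidine arrays each, and *dhs-15* and *dhs-16*, on 2 of 4 and 2 of 3 each.

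**Figure D1:**
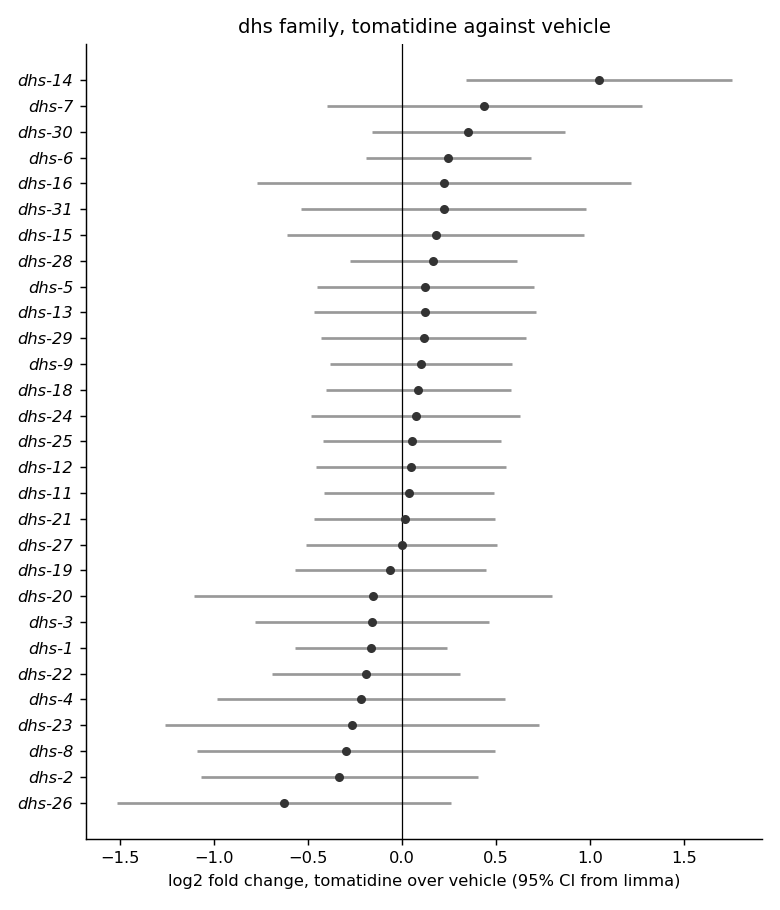
Log2 fold change of tomatidine over vehicle for the 29 *dhs* genes tested (points), with 95% confidence intervals from limma (bars), sorted by size. The interval of *dhs-14* alone lies wholly to one side of 0, and the intervals of 21 members lie within 1 log2 unit of it.

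By the z-ratio, which divides a gene's difference in mean z-score by the SD of that difference across genes, 2 members were past 1.5 in the higher direction and 1 in the lower. These were *dhs-14* at 3.89, *dhs-7* at 1.63 and *dhs-26* at -2.34. Over all genes, 5.29% were past that threshold in the higher direction and 3.68% in the lower. In 0 of the 29 members were all tomatidine arrays above all vehicle arrays, against 0.816% of all genes, and in 0 were they all below, against 1.27%. The share of genes with groups apart in either direction was 2.08%.

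*dhs-14* had the largest difference of the family. Its log2 signal was 3.30, 4.60, 2.99 and 4.23 on vehicle replicates 1 to 4, and 5.18, 4.81 and 4.48 on tomatidine replicates 1 to 3. Only vehicle replicate 2 reached into the range of the tomatidine arrays, above tomatidine replicate 3 and below the other two. The vehicle mean was 3.78 ± 0.76 (SD, n = 4) and the tomatidine mean 4.83 ± 0.35 (SD, n = 3). The log2 fold change was 1.04 with a standard error of 0.33 and a 95% confidence interval of 0.34 to 1.75, a 2.06-fold difference (limma, unadjusted p = 0.00676, adjusted p = 0.9998). *dhs-14* did not pass the test over all genes. With the methods' t-test, which uses the gene's own spread alone, its standard error was 0.48 and its unadjusted p was 0.082.

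The size of the *dhs-14* difference was uneven across the arrays. Within the pairs that share a label tag, it was 0.58 for tomatidine replicate 1, 1.82 for tomatidine replicate 2 and 0.25 for tomatidine replicate 3. Within the slides it was 1.55 on the first and 0.42 on the second. All of these values are positive. Without 1 array the log2 fold change ran from 0.78, without vehicle replicate 3, to 1.32, without vehicle replicate 2. As vehicle replicate 2 was the only vehicle array in the tomatidine range, leaving it out had to set the groups apart. In that setting 3.89% of all genes had groups apart, and the adjusted p of *dhs-14* was 0.495 (limma).

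The gene lies on chromosome V in a run of consecutive protein-coding genes that RefSeq names *dhsl-4*, *dhs-14*, *cror-2* and *dhs-15*. The 2 genes of this run that are not *dhs* members were picked after their values were seen, because they border *dhs-14*. *cror-2*, next to it, had log2 signals of -2.08, -0.90, -2.25 and 0.50 on vehicle replicates 1 to 4, and of 3.64, 3.38 and 2.54 on tomatidine replicates 1 to 3. Every tomatidine array stood above every vehicle array. Its log2 fold change was 4.37 with a standard error of 0.53 (limma, adjusted p = 0.00183), with a probe that cleared background on 3 of 4 vehicle and 3 of 3 tomatidine arrays. The size and the call depended on the processing. On the log2 scale the difference was 2.51 after normexp and quantile normalization and 2.78 on the raw median signal, and the adjusted p was 0.0820 in limma without trend and 0.9999 with the methods' t-test. The difference of *cror-2* was 4.54, 5.63 and 2.04 within the tag pairs and 5.38 and 2.46 within the slides.

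The outer genes of the run did not move in this way. *dhsl-4* had log2 signals of 0.72, 1.51, 0.80 and 1.91 on the vehicle arrays and 1.499, 1.29 and 1.03 on the tomatidine arrays. Its tomatidine arrays lie inside the vehicle range, with a log2 fold change of 0.04 and a 95% confidence interval of -0.61 to 0.68. *dhs-15* had -1.54, -1.70, -1.72 and -0.78 on the vehicle arrays and -1.56, -1.16 and -1.05 on the tomatidine arrays. These too lie inside the vehicle range, with a log2 fold change of 0.18 and a 95% confidence interval of -0.61 to 0.97. Each of the 4 genes was read by 1 probe. Whether the probe of *dhs-14* also binds the transcript of *cror-2* was not tested.

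**Figure D2:**
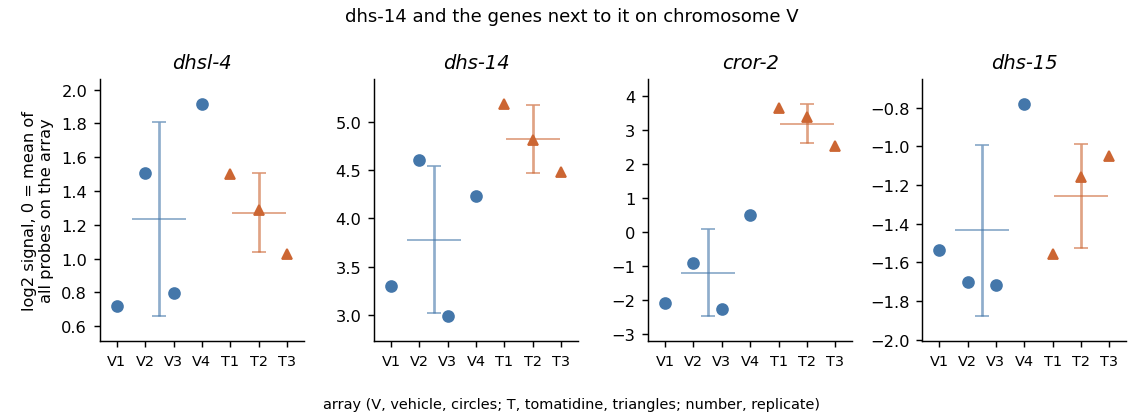
Log2 signal of *dhs-14* and of its neighbours *dhsl-4*, *cror-2* and *dhs-15* on each array, with vehicle replicates as circles (V1 to V4), tomatidine replicates as triangles (T1 to T3), and group means with SD as lines; each gene has its own vertical scale, and 0 is the mean of all probes on the array. The groups are apart for *cror-2*, overlap by 1 vehicle array for *dhs-14*, and overlap fully for the outer genes.

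*dhs-26*, on the X chromosome, had the lowest log2 fold change. Its log2 signal was 5.54, 6.75, 5.37 and 6.49 on vehicle replicates 1 to 4, and 5.97, 4.23 and 6.03 on tomatidine replicates 1 to 3. Tomatidine replicate 2 was the lowest of all arrays, and the other tomatidine arrays lay inside the vehicle range. The 95% confidence interval of its log2 fold change of -0.63 (standard error 0.42) ran from -1.52 to 0.26. Its second probe gave -0.67. Within the tag pairs the difference was -0.79, -1.14 and -0.47. Without tomatidine replicate 2 it was -0.04, and within the first slide it was 0.08.

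*dhs-2* lay next lowest. Its log2 signal was 2.96, 4.11, 2.71 and 3.94 on the vehicle arrays and 3.55, 2.42 and 3.31 on the tomatidine arrays. The groups overlap, and tomatidine replicate 2 was again the lowest array. Its log2 fold change was -0.33 with a 95% confidence interval of -1.07 to 0.40, and the tag pairs gave -0.55, -0.29 and -0.63. With the tags as a replicate block, the count of members at an unadjusted p under 0.05 rose from 1 to 3, with *dhs-2* and *dhs-26* added as lower, and the share over all genes rose from 1.22% to 4.06%. In that fit *dhs-26* had a log2 fold change of -0.80 and an adjusted p of 0.260 (limma). *dhs-14* had 0.88 and an adjusted p of 0.506, so 0 passed the test over all genes. The tag of vehicle replicate 1 joins it to no other array, so these log2 fold changes equal those without that array. Without it and with no block, *dhs-14* alone had an unadjusted p under 0.05, against 0.823% of all genes.

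*dhs-20* and *dhs-23*, picked out after their values were seen, varied most of the family among the vehicle arrays. *dhs-20* had log2 signals of 2.08, 3.18, 1.44 and 3.12 on the vehicle arrays and 3.07, 1.22 and 2.62 on the tomatidine arrays, with a vehicle SD of 0.84. *dhs-23* had 0.29, 1.01, -0.58 and 1.14 on the vehicle arrays and 1.07, -0.89 and 0.41 on the tomatidine arrays, with a vehicle SD of 0.79. In both genes vehicle replicates 1 and 3 and tomatidine replicate 2 were low. Their log2 fold changes were -0.16 and -0.27 with standard errors of 0.44 and 0.47. Their sign turned between the slides, from 0.83 for each on the first slide to -1.205 for *dhs-20* and -1.38 for *dhs-23* on the second.

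This order of the arrays recurred in the family. Vehicle replicates 1 and 3 and tomatidine replicate 2 were the 3 lowest arrays in 12 of the 29 members, against 8.1% of all genes tested. The 12 were *dhs-2*, *dhs-3*, *dhs-9*, *dhs-11*, *dhs-12*, *dhs-19*, *dhs-20*, *dhs-21*, *dhs-23*, *dhs-25*, *dhs-26* and *dhs-29*. The 3 arrays were taken as the lowest of *dhs-26*, which is itself among the 12. Among 11 tested short-chain dehydrogenases with other names, the same 3 were lowest in *decr-1.1*, *let-767* and *stdh-1*. Among 14 tested alcohol and aldehyde dehydrogenases, they were lowest in *alh-1*, *alh-6*, *alh-9* and *alh-12*. Most genes of these 2 groups did not show the order, nor did most *dhs* genes, and it is not particular to the *dhs* genes. The same 3 were also lowest in *acox-1.3*, *ctl-2*, *dgat-2* and *col-19* of the other lists and markers. This pattern was noticed in the data and is given as a description. The 3 low arrays come from both groups and both slides, and 2 of them, vehicle replicate 3 and tomatidine replicate 2, share a label tag.

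The family's median gave a partly different order. The median deviation of the 29 members from their own means was -0.21, 0.25, -0.29 and 0.27 on vehicle replicates 1 to 4, and -0.03, -0.06 and 0.25 on tomatidine replicates 1 to 3. The medians of all genes lay between -0.06 and 0.12 on the same arrays. Vehicle replicates 1 and 3 were low in this median too, while tomatidine replicate 2 was close to its median over all genes, -0.03. The spread of these medians among the vehicle arrays was wider than the family's median difference between the groups. The mean deviation of the 7 intestine markers was -0.25, 0.31, -0.26 and -0.09 on the vehicle arrays and 0.22, -0.03 and 0.10 on the tomatidine arrays. The 5 muscle markers had -0.27, 0.36, -0.25 and -0.13 on the vehicle arrays and 0.52, 0.04 and -0.27 on the tomatidine arrays, and the 6 germline markers had -0.35, 0.40, 0.36 and -0.38 on the vehicle arrays and 0.45, -0.21 and -0.28 on the tomatidine arrays. Intestine and muscle markers were both low on vehicle replicates 1 and 3, and germline markers were low on the first of these and high on the second. The 4 hypodermis, 4 neuron and 3 sperm markers ranged over the arrays from -0.58 to 0.65, from -0.15 to 0.32 and from -0.49 to 0.41. The hypodermis range rests mostly on *rol-6*, at -4.07 on vehicle replicate 2 and 1.08 on tomatidine replicate 3. Its probe cleared background on 2 of 4 vehicle arrays. Of the 3 sperm markers, 1 was above background on all arrays. The part of these lists in the family's order was not tested. The vehicle SD of single members had a median of 0.37, against 0.35 over all genes. The SD of *dhs-26*, 0.69, was taken as a cut after the values were seen, so that gene reaches it by definition. At or above the cut were 5 members (*dhs-2*, *dhs-14*, *dhs-20*, *dhs-23* and *dhs-26*) and 10.6% of all genes.

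**Figure D3:**
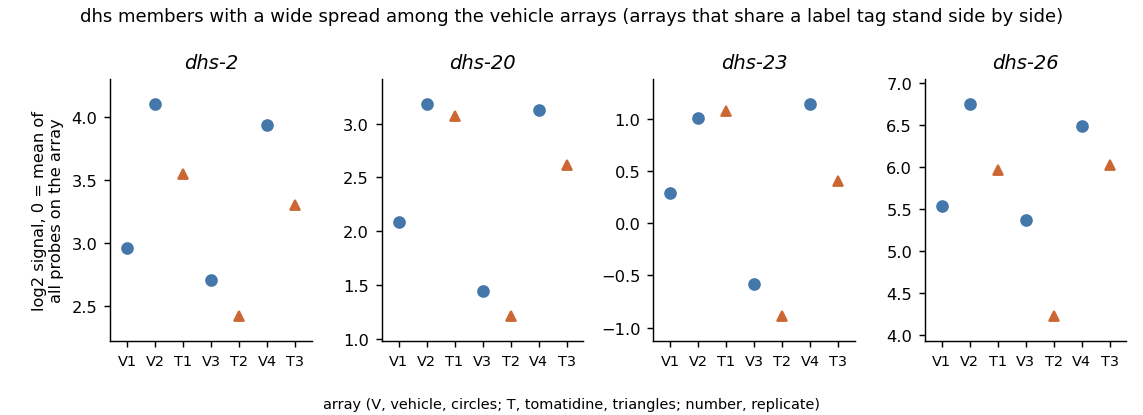
Log2 signal of *dhs-2*, *dhs-20*, *dhs-23* and *dhs-26* on each array (0 is the mean of all probes on the array; each gene has its own vertical scale), with vehicle replicates as circles and tomatidine replicates as triangles, and with arrays that share a label tag side by side. V1, V3 and T2 are the 3 lowest arrays for each gene.

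Among the members with a known role, *dhs-3* and *dhs-19* encode lipid droplet proteins, and *dhs-3* marks the fat stores of the intestine. *dhs-3* had log2 signals of 5.12, 6.41, 5.29 and 5.82 on the vehicle arrays and 5.97, 5.23 and 5.30 on the tomatidine arrays. All tomatidine arrays lie inside the vehicle range. The log2 fold change was -0.16 with a standard error of 0.29 and a 95% confidence interval of -0.78 to 0.46, and the second probe gave -0.03. *dhs-19* had 4.40, 5.103, 4.47 and 4.96 on the vehicle arrays and 5.07, 4.25 and 4.69 on the tomatidine arrays. Its groups overlap, with a log2 fold change of -0.06 and a 95% confidence interval of -0.57 to 0.45.

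*dhs-28* encodes a peroxisomal enzyme that shortens fatty acyl chains, including those of the ascaroside pheromones. Its log2 signal was 4.30, 4.93, 4.53 and 4.89 on the vehicle arrays and 4.62, 4.80 and 5.07 on the tomatidine arrays. Tomatidine replicate 3 was the highest array, and the groups overlap. Between the groups the log2 fold change was 0.17 with a standard error of 0.21 and a 95% confidence interval of -0.28 to 0.61. The gene was read by 7 probes, whose log2 fold changes ran from -0.20 to 0.17, with 5 higher and 2 lower.

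*dhs-16* encodes a 3-hydroxysteroid dehydrogenase in the synthesis of dafachronic acids, the bile acid-like hormones that bind the nuclear receptor DAF-12. The probe cleared background on 2 of 4 vehicle and 2 of 3 tomatidine arrays. On the scaled arrays its log2 signal was -2.45, -3.21, -2.95 and -1.98 on the vehicle arrays and -2.77, -2.42 and -2.07 on the tomatidine arrays. The tomatidine arrays lie inside the vehicle range. A standard error of 0.46 accompanied the log2 fold change of 0.22, whose 95% confidence interval ran from -0.77 to 1.22.

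*dhs-21* encodes an L-xylulose reductase, which links sugar acids and sugar alcohols to the pentose phosphate route. Its log2 signal was 3.45, 3.84, 3.16 and 3.72 on the vehicle arrays and 3.82, 3.17 and 3.68 on the tomatidine arrays. The vehicle range holds all tomatidine arrays. Its log2 fold change was 0.01 with a standard error of 0.23 and a 95% confidence interval of -0.47 to 0.49.

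**Figure D4:**
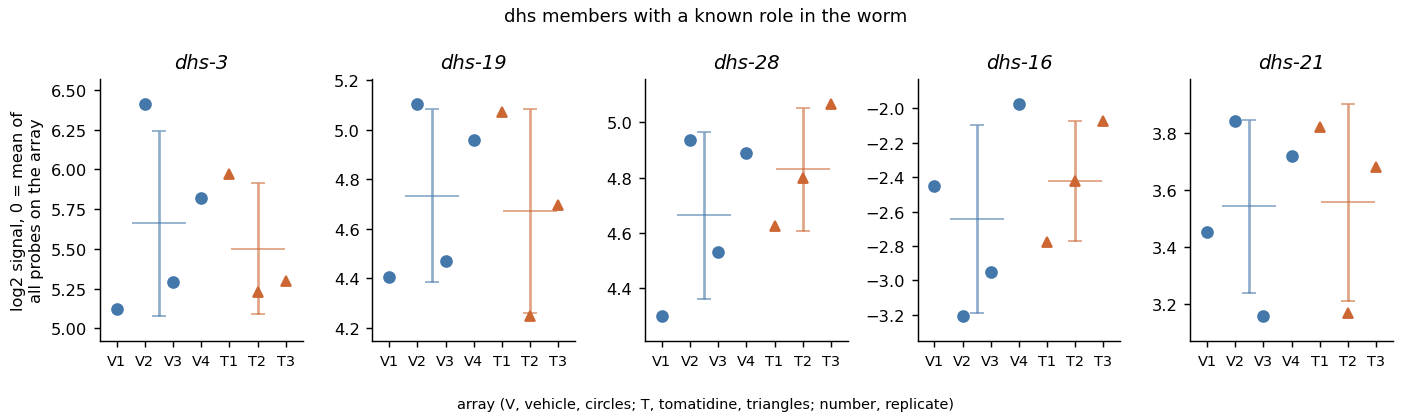
Log2 signal of *dhs-3*, *dhs-19*, *dhs-28*, *dhs-16* and *dhs-21* on each array (0 is the mean of all probes on the array; each gene has its own vertical scale), with vehicle replicates as circles, tomatidine replicates as triangles, and group means with SD as lines. The groups overlap in all 5 genes.

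*dhs-7* and *dhs-30* had the highest log2 fold changes after *dhs-14*. *dhs-7* had log2 signals of -1.69, -1.89, -1.39 and -0.64 on the vehicle arrays and -1.45, -0.84 and -0.61 on the tomatidine arrays, with vehicle replicate 4 above tomatidine replicates 1 and 2. The log2 fold change of *dhs-7* was 0.44 with a 95% confidence interval of -0.40 to 1.28, and it was 0.19 with normexp and quantile normalization and between 0.26 and 0.69 without 1 array. *dhs-30* had 3.04, 2.63, 3.10 and 3.67 on the vehicle arrays and 3.22, 3.54 and 3.63 on the tomatidine arrays, and vehicle replicate 4 was again the highest of its group, above all tomatidine arrays. For *dhs-30* the log2 fold change was 0.35 with a 95% confidence interval of -0.16 to 0.86. It was 0.052 with normexp and quantile normalization, 0.055 on the raw median signal, and between 0.19 and 0.54 without 1 array. With the slide as a block, the log2 fold change was 0.07 for *dhs-7* and 0.11 for *dhs-30*. Of the 8 probes of *dhs-30*, 3 passed the filter on dim probes, with log2 fold changes between 0.07 and 0.35, and the other 5 were above background on 0 arrays.

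*dhs-8* completed the lower end, with log2 signals of -0.75, -0.99, -1.28 and -0.41 on the vehicle arrays and -1.71, -1.199 and -0.55 on the tomatidine arrays. Tomatidine replicate 1 alone lay below all vehicle arrays. The difference, a log2 fold change of -0.30, had a 95% confidence interval of -1.09 to 0.50. It depended on single arrays, at -0.02 without tomatidine replicate 1, -0.15 without vehicle replicate 4 and -0.60 without tomatidine replicate 3.

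The other 16 members had log2 fold changes between -0.22 and 0.25, each with a 95% confidence interval that holds 0. Of these, 12 were positive (*dhs-5*, *dhs-6*, *dhs-9*, *dhs-11*, *dhs-12*, *dhs-13*, *dhs-15*, *dhs-18*, *dhs-24*, *dhs-25*, *dhs-29* and *dhs-31*) and 4 were negative (*dhs-1*, *dhs-4*, *dhs-22* and *dhs-27*). Their vehicle SDs ran from 0.22 for *dhs-1* to 0.44 for *dhs-15*. Among the 6 members with more than 1 probe kept, the probes of *dhs-24* and *dhs-28* differed in sign, and those of *dhs-3*, *dhs-9*, *dhs-26* and *dhs-30* had the same sign.

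In a comparison of arrays joined by a label tag, 3 members were higher with tomatidine in all 3 pairs, against 11.1% of all genes. These were *dhs-7*, *dhs-14* and *dhs-31*. Another 9 members were lower in all 3 pairs, against 12.6% of all genes, and these were *dhs-2*, *dhs-3*, *dhs-11*, *dhs-12*, *dhs-19*, *dhs-20*, *dhs-22*, *dhs-25* and *dhs-26*. All of these 9 but *dhs-22* had the shared order of low arrays described above, so this count is not separate from that order. Vehicle replicate 1 is in no pair. Over all arrays *dhs-11*, *dhs-12* and *dhs-25* had positive log2 fold changes (0.04, 0.05 and 0.05). The pair differences were mostly small, and the median of the family within the pairs was -0.06, 0.08 and -0.04. The counts moved with the scaling, to 3 higher and 5 lower after a shift to the 75th percentile of each array, against 8.70% and 13.2% of genes, and to 2 higher and 8 lower with normexp and quantile normalization, against 10.03% and 9.93%. *dhs-14* was higher in all 3 pairs, and *dhs-2*, *dhs-3*, *dhs-20* and *dhs-26* were lower in all 3, under each of these 3 scalings.

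**Figure D5:**
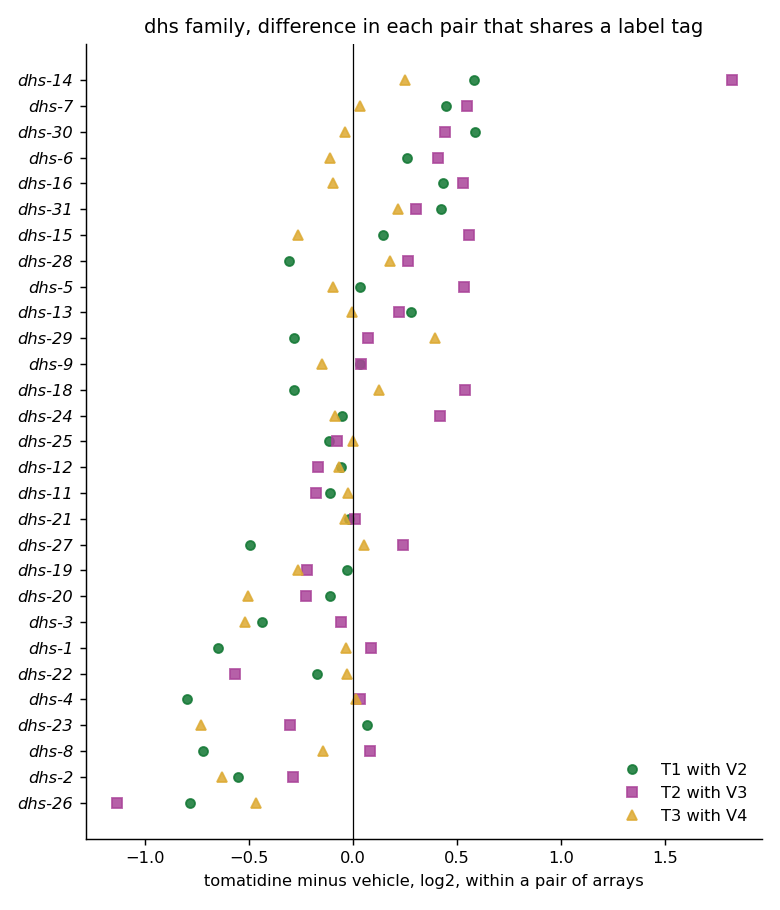
Difference of log2 signal, tomatidine minus vehicle, within each tag pair (circles, tomatidine replicate 1 with vehicle replicate 2; squares, 2 with 3; triangles, 3 with 4), for the 29 *dhs* genes sorted by log2 fold change. *dhs-7*, *dhs-14* and *dhs-31* lie above 0 in all 3 pairs, and 9 members lie below 0 in all 3.

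Genes of the same pathways were followed in 6 lists with 77 genes, of which 63 were tested. Of these 63, 0 passed limma's test, and at an unadjusted p under 0.05 there were 1 higher and 2 lower, against 0.752% and 0.471% of all genes. The list medians of the log2 fold change lay between -0.07 and 0.04, beside -0.03 for all genes.

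The peroxisomal beta-oxidation and ascaroside list, to which *dhs-28* relates, had 14 of 16 genes tested and a median of 0.04. It held both a higher and a lower acyl-CoA oxidase, an enzyme of the first step of chain shortening. *acox-1.5* had log2 signals of 2.89, 2.74, 2.85 and 3.29 on the vehicle arrays and 3.52, 3.67 and 3.60 on the tomatidine arrays. All tomatidine arrays lay above all vehicle arrays, with a log2 fold change of 0.66 and a standard error of 0.20 (limma, unadjusted p = 0.00458, adjusted p = 0.9998). *acox-1.2* had 0.59, 0.48, -0.59 and 0.17 on the vehicle arrays and -1.25, -0.87 and -0.42 on the tomatidine arrays. Vehicle replicate 3 lay within the tomatidine range, and the log2 fold change was -1.01 with a standard error of 0.35 (limma, unadjusted p = 0.0115, adjusted p = 0.9998). Neither passed the test over all genes.

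The alcohol and aldehyde dehydrogenase list had 14 of 17 genes tested and a median of -0.03. Its lowest gene was *adh-1*, an alcohol dehydrogenase, with log2 signals of 3.29, 3.48, 2.28 and 3.32 on the vehicle arrays and 2.18, 1.94 and 3.07 on the tomatidine arrays. Vehicle replicate 3 was low and tomatidine replicate 3 high for their groups, so the groups overlap. Between the groups *adh-1* had a log2 fold change of -0.70 with a standard error of 0.31 (limma, unadjusted p = 0.0429, adjusted p = 0.9998).

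In the other lists 0 genes had an unadjusted p under 0.05. Among the dafachronic acid and steroid enzymes, to which *dhs-16* relates, 8 of 13 genes were tested, with a median of -0.03 and values from -0.23 for the receptor gene *daf-12* to 0.42 for *stdh-2*. The probe of *stdh-2* was dim, with 1 of 4 vehicle and 2 of 3 tomatidine arrays above background, so its value is loosely set. Among the lipid droplet proteins, beside *dhs-3* and *dhs-19*, 11 of 11 were tested, with a median of -0.07 and values from -0.23 for *acs-22* to 0.12 for *plin-1*, which encodes the droplet coat protein perilipin. Among short-chain dehydrogenases with other names, 11 of 19 were tested, with a median of -0.01 and values from -0.28 for *bre-1* to 0.42 for *stdh-2*. Among the xylulose, pentose and sugar alcohol enzymes, beside *dhs-21*, 8 of 10 were tested, with a median of -0.06 and values from -0.24 for *rpia-1* to 0.08 for *tald-1*.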

How the data were processed

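The authors read the scanned arrays with Agilent Feature Extraction 11.5.1.1. The deposited processed signal is an intensity after background subtraction and detrending, and the multiplicative detrending step is missing for vehicle replicate 2. A second deposited file holds the authors' own score for each probe, a z-score of log intensity, and served as an alternative. Of 43603 probes, 34544 matched 1 gene of the RefSeq annotation (assembly WBcel235) through sequence name, accession or symbol, and coordinates are not given because the array was designed on an older build (ce6). Control and outlier spots were left out, log2 values were converted to z-scores per array, and these were multiplied by the mean SD of the arrays, 4.05. Probes had to be well above background on 3 or more arrays, and the brightest of those stood for its gene.

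Groups were compared in limma 3.58.1 under R 4.3.3 (lmFit, eBayes with trend, two-sided, Benjamini-Hochberg at 0.05 over 14224 genes, 5 residual degrees of freedom), and the code was tested on simulated data. The z-ratio threshold was 1.5, as in the methods. The number of arrays limits the precision. Alternatives covered scaling, background correction (normexp with offset 50 on the median signals, since the files hold no mean signal), probe filters, the methods' t-test, slide, pairing and left-out arrays.

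Across genes, which are not independent replicates, the correlation r of deviations from group means was 0.61, 0.19 and 0.51 for arrays that share a label tag, and -0.53, -0.45 and -0.33 for arrays that share a title number. The tags were taken to pair the arrays, as each exceeded 0.1. Their meaning is not stated, and 0.1 does not single them out, since the untagged vehicle replicate 1 had r of 0.35 both with tomatidine replicate 2 and with tomatidine replicate 3, and tomatidine replicate 1 gave 0.12 with vehicle replicate 3.

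Every member is named. Values on each array are given for members with an unadjusted p under 0.05, the 3 largest and 3 smallest log2 fold changes and 5 members of known role, and for list genes with an unadjusted p under 0.05. Exceptions are marked. The members and lists were chosen with earlier results of these data known. No sequence is shown, since none was used here.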

Additional observations from a re-analysis of the deposited data

Results flagged for a closer look

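In 2 of the 29 *dhs* members, 1 of the 4 vehicle arrays stood far from the others by Dixon's test, which chance gives in about 1 group of 20. For *dhs-6* this was vehicle replicate 4, the highest at a log2 signal of 4.95, where the gap to the next array was 0.910 of the range. For *dhs-13* it was vehicle replicate 2, the lowest at 0.34, where the gap was 0.842 of the range. Neither array was left out of the values above.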

How the results depend on the processing

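The family's median log2 fold change, 0.05, turned negative with the slide block (-0.07), without tomatidine replicate 3 (-0.05) and within the second slide (-0.18). It was -0.03 without vehicle replicate 1, and equally with the tag block, where that array does not enter the estimates. Without tomatidine replicate 2 it reached 0.15. The count of *dhs* members past the test was 0 under all alternatives with a test except the title numbers as a replicate block, where it was 1, *dhs-14* (log2 fold change 1.19, adjusted p = 0.00655). The title numbers were not taken as pairs, since arrays that share one had r of -0.53, -0.45 and -0.33. Neither the labels nor the methods state which arrays are paired. Vehicle replicate 4 shares its number with no tomatidine array. Without that array and with no block, *dhs-14* had the same log2 fold change, with an adjusted p of 0.9999 (limma). The next lowest adjusted p of *dhs-14* was 0.495, and its unadjusted p was under 0.05 in 21 of 22 fits, the exception being the methods' t-test.

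The count of members at an unadjusted p under 0.05 was 0 with the methods' t-test (1.56% of all genes in that setting), 3 with the label tags as a replicate block (4.06%), and 1 to 3 without 1 array, with 3 without vehicle replicate 4 (*dhs-6*, *dhs-14* and *dhs-30*; 2.95%) and 2 without tomatidine replicate 1 (*dhs-14* and *dhs-26*; 1.58%). The count past the z-ratio was 5 with normexp (10.5%), 6 within the second slide (11% of genes), and 1 to 7 without 1 array, with 7 without vehicle replicate 3 (9.88%), 6 without tomatidine replicate 1 (10.2%), and 1 without vehicle replicate 2 (9.57%) or tomatidine replicate 2 (9.78%). The count of members with groups apart was 1 after the 75th percentile shift (*dhs-14*, 3.09%), 1 with normexp (*dhs-1*, lower, 2.51%), 2 on the raw median signal (*dhs-1* and *dhs-14*, 1.72%), 2 without both vehicle replicate 2 and tomatidine replicate 1 (*dhs-14* and *dhs-22*, 9.78%), and 0 to 2 without 1 array, with 2 without vehicle replicate 4 (*dhs-6* and *dhs-30*, 8.63%), and 1 without vehicle replicate 2 (3.89%), tomatidine replicate 1 (7.16%) or tomatidine replicate 3 (7.54%). In each case without 1 array, the groups had overlapped only through the array left out. Leaving it out therefore had to set them apart. The lipid droplet median was 0.0517 within the second slide.

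The sign turned within the first slide for *dhs-26* (0.0807), *dhs-2* (0.29), *dhs-20* (0.83), *dhs-23* (0.83), *dhs-3* (0.37) and *dhs-19* (0.41), and within the second for *dhs-7* (-0.0829), *dhs-30* (-0.0871), *dhs-16* (-0.27) and *dhs-21* (-0.30). It also turned for *dhs-20* (0.0646) and *dhs-19* (0.0125) with the title block, for *dhs-19* (0.0632) and *dhs-21* (-0.0706) with normexp, for *dhs-19* (0.0540), *dhs-16* (-0.0111) and *dhs-21* (-0.0612) on the raw median signal, for *dhs-16* (-0.0786) with the slide as a block, for *dhs-21* (-0.0168) with the tag block, and for *dhs-21* (-0.0204) without both vehicle replicate 2 and tomatidine replicate 1. The cause was not tested. Without 1 array the log2 fold changes ran from -0.57 to 0.00057 for *dhs-2*, -0.54 to 0.38 for *dhs-20*, -0.70 to 0.27 for *dhs-23*, -0.40 to 0.0907 for *dhs-3*, -0.26 to 0.15 for *dhs-19*, and -0.12 to 0.21 for *dhs-21*.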
